A study of Nicotiana tabacum with 6 samples.

Results

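XDH1, AAH and ARGAH2 are genes of nitrogen recycling, and each symbol was carried by 2 genes of cultivated tobacco (Nicotiana tabacum) in these data. The 6 genes were found by the first name in the symbol column of the deposited count table, out of 69500 genes in all. The symbols and loci deposited beside the tobacco identifiers name Arabidopsis genes for XDH1 (At4g34890) and ARGAH2 (At4g08870) and a rice gene for AAH (Os06g0665500). Messenger RNA was measured in 3 libraries of control seedlings, grown with 7.5 mM ammonium nitrate, and 3 libraries of low nitrogen seedlings, grown with 0.75 mM, all after 15 days with the nutrient solution changed every 7 days. The labels give no strain, genotype, age or organ, and do not say that the libraries came from separate plants, and p-values therefore cover nothing beyond the spread among 6 samples, which may be technical in part.

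Plants take nitrogen back from purines and from arginine by separate routes that both end in ammonium. Xanthine dehydrogenase oxidises hypoxanthine and xanthine to urate, which is turned into allantoin and then allantoate, and allantoate amidohydrolase (AAH) releases the first ammonium from allantoate. Arginase splits arginine into ornithine and urea inside the mitochondrion, and urease releases ammonium from the urea. In plants these routes are known for moving nitrogen out of older tissue and stored protein.

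Total counts ran from 13027374 to 15620067 per library, and 38482 genes passed the filter on low counts, all 6 of these genes among them. Levels are given as CPM, counts scaled to a common library total after TMM scaling, with values in the order of replicates 1, 2 and 3. Fold changes are the log2 of low nitrogen over control from edgeR's quasi-likelihood test. Since the labels name no organ, marker genes of photosynthesis and of roots were summed in each library. The summed level of 152 photosynthesis genes came to 192, 157 and 1925 CPM in the control libraries and 1127, 523 and 237 CPM in the low nitrogen libraries, with 16 to 60 of the 152 genes at 0 in a library. The summed level of 23 root genes was 784 to 1313 CPM in controls and 968 to 1175 CPM in low nitrogen, with 0 to 3 genes at 0. These sums are CPM without TMM scaling. The 23 root genes summed higher than the 152 photosynthesis genes in every library but control replicate 3 and low nitrogen replicate 1. Transcripts of both kinds were present, and the organ itself was not determined. Control replicate 3 and low nitrogen replicate 1 stood apart with the highest photosynthesis sums, and each of the 6 genes is given with and without that pair. Without the pair the sums were 192 and 157 CPM in controls and 523 and 237 CPM in low nitrogen. Values without the pair are therefore not free of a difference in photosynthesis transcripts. In bulk samples such as these, fewer cells of a type and less RNA per cell cannot be told apart.

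All 6 genes had a higher mean in low nitrogen, with fold changes of 0.27 to 0.96, and in 4 of them every low nitrogen library lay above every control library. These 4 were both XDH1 genes, 1 AAH gene and 1 ARGAH2 gene. Over all genes tested, 9.66% had every low nitrogen library above every control library. The same 4 genes had an unadjusted edgeR p under 0.05 in the upward direction, against 6.1% of all genes tested, and 0 had one in the downward direction, against 5.66%. With Benjamini-Hochberg adjustment over all 38482 genes, edgeR placed 0 of the 6 past the threshold of 0.05, and 0% of all genes. limma-voom likewise placed 0 of the 6 and 0% of all genes past it. DESeq2 placed 2 of the 6 past it in the upward direction, 1 XDH1 gene and 1 ARGAH2 gene, against 0.754% of all genes with an adjusted p, and 0 in the downward direction, against 0.87%. At an unadjusted p under 0.05 limma-voom and DESeq2 each placed 4 of the 6 higher, against 6.01% and 5.52% of all genes. The median fold change of the 38482 genes was 0.003 on the log2 scale. The 6 genes were chosen with earlier results of these data known. The shares over all genes, here and below, therefore give a scale and are no test of the set.

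**Figure D1:**
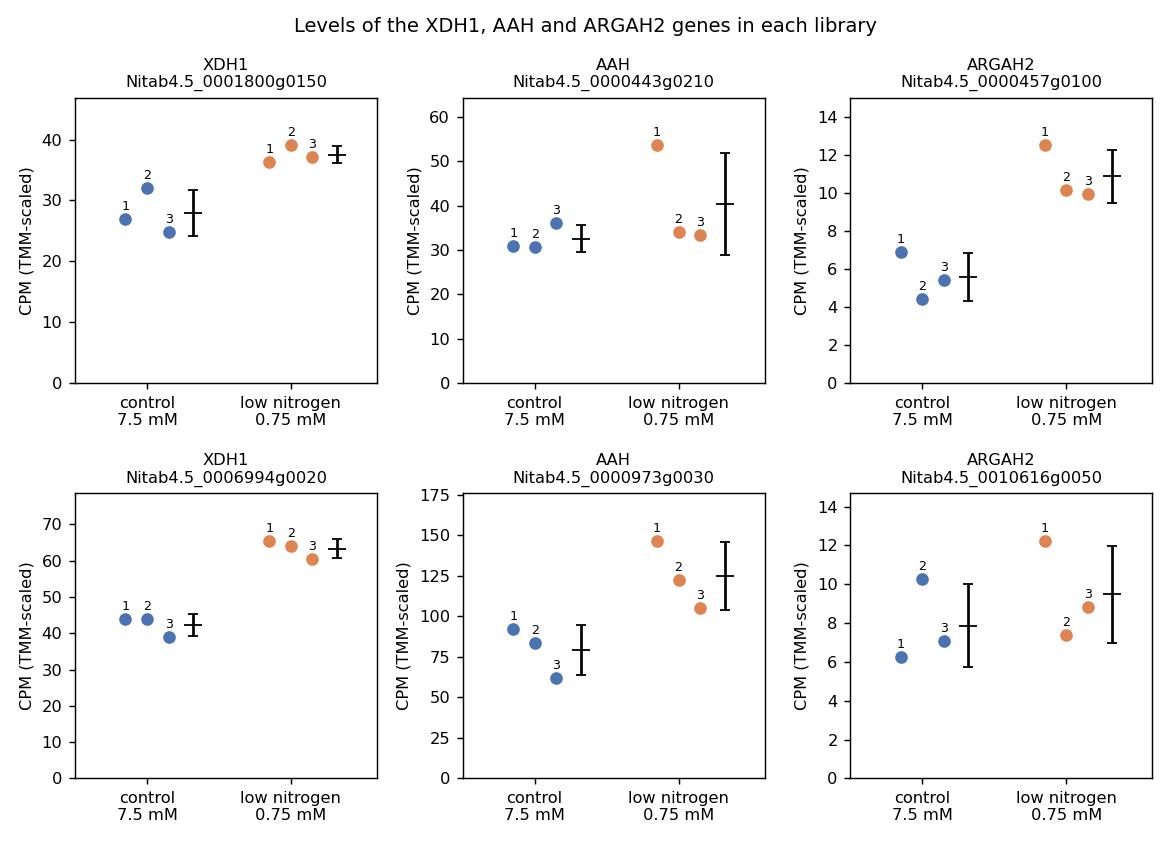
Level of each gene (CPM after TMM scaling, axis from 0) in the 3 control and 3 low nitrogen libraries. Points are libraries numbered by replicate, and the bar beside each group is the mean with its SD. The groups are separate for both XDH1 genes, AAH Nitab4.5_0000973g0030 and ARGAH2 Nitab4.5_0000457g0100, and overlap for the other AAH and ARGAH2 genes.

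XDH1 encodes xanthine dehydrogenase, a molybdenum enzyme and the entry point of the ureide route. XDH1 Nitab4.5_0006994g0020 was at 43.9, 44.0 and 38.9 CPM in the control libraries and at 65.5, 64.0 and 60.3 CPM in the low nitrogen libraries. The libraries of each group lay close together, and the lowest low nitrogen library was 1.37 times the highest control library. The means were 42.3 ± 2.93 and 63.3 ± 2.64 CPM (SD, n = 3), from 1676 and 2830 counts over each group. The fold change was 0.58 (SE 0.12, 95% interval 0.30 to 0.86), with an unadjusted edgeR p of 0.00160, rank 185 among all genes tested, and an adjusted edgeR p of 0.332. DESeq2 gave the same gene a fold change of 0.57 (SE 0.15) and an adjusted p of 0.0125.

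The second XDH1 gene, Nitab4.5_0001800g0150, was at 26.9, 32.1 and 24.8 CPM in the control libraries and at 36.3, 39.0 and 37.1 CPM in the low nitrogen libraries. The groups were again separate, with control replicate 2 nearest to low nitrogen. The means were 27.9 ± 3.78 and 37.5 ± 1.40 CPM (SD, n = 3). The fold change was 0.42 (SE 0.14, 95% interval 0.10 to 0.74), with an unadjusted edgeR p of 0.0162, an adjusted edgeR p of 0.378 and a DESeq2 adjusted p of 0.283. The unadjusted edgeR p was 0.0591 without control replicate 1, 0.0638 when control replicate 3 was left out and 0.0534 when low nitrogen replicate 2 was left out, with fold changes of 0.39, 0.34 and 0.40. Without both libraries that stood apart it was 0.0750, at a fold change of 0.36.

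The division of the XDH1 counts between the genes was measured in each library. Nitab4.5_0001800g0150 held 38.0%, 42.2% and 38.9% of the XDH1 counts in control replicates 1 to 3 and 35.7%, 37.9% and 38.1% in the low nitrogen libraries. The mean share was 39.7% ± 2.23 and 37.2% ± 1.34 (SD, n = 3), a difference of -2.48 percentage points with a two-sided exact permutation p of 0.20, where 3 against 3 libraries cannot give less than 0.10. The exact Clopper-Pearson 95% intervals of the shares in single libraries ran from 33.2% to 45.3%, and cover counting error only. With both genes summed, XDH1 was at 82.5, 88.4 and 74.6 CPM in controls and at 118, 119 and 113 CPM in low nitrogen. The summed fold change was 0.51 (SE 0.10, 95% interval 0.28 to 0.75).

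AAH encodes allantoate amidohydrolase, the step at which the ureide route first gives up ammonium. AAH Nitab4.5_0000973g0030 was at 91.8, 83.4 and 61.9 CPM in the control libraries and at 147, 122 and 105 CPM in the low nitrogen libraries. The groups were separate, with control replicate 3 the lowest library and low nitrogen replicate 1 the highest. The means were 79.1 ± 15.4 and 125 ± 21.0 CPM (SD, n = 3), with a fold change of 0.66 (SE 0.20, 95% interval 0.19 to 1.13). The unadjusted edgeR p was 0.0129, the adjusted edgeR p 0.368 and the DESeq2 adjusted p 0.148. These lowest and highest libraries were the ones with the highest photosynthesis sums in their groups, and without both of them the fold change was 0.36 with an unadjusted edgeR p of 0.0885. The part of photosynthetic tissue in this difference was not tested.

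The other AAH gene, Nitab4.5_0000443g0210, had its higher mean from 1 library. It was at 31.0, 30.7 and 36.1 CPM in the control libraries and at 53.6, 34.0 and 33.4 CPM in the low nitrogen libraries. Low nitrogen replicates 2 and 3 lay inside the control range, and low nitrogen replicate 1 lay far above it. The fold change was 0.31 (SE 0.21, 95% interval -0.18 to 0.79), with an unadjusted edgeR p of 0.181, and was 0.04 without low nitrogen replicate 1 and 0.12 when control replicate 3 was left out as well. Within each group the highest library was the one with the highest photosynthesis sum, control replicate 3 and low nitrogen replicate 1, and the part of photosynthetic tissue was not tested.

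The share of AAH counts held by Nitab4.5_0000443g0210 was 25.2%, 26.9% and 36.8% in the control libraries and 26.8%, 21.8% and 24.2% in the low nitrogen libraries. Control replicate 3 stood above the other 5 libraries, with an exact 95% interval of 34.3% to 39.4% for counting error. The mean shares were 29.7% ± 6.26 and 24.2% ± 2.50 (SD, n = 3), and the two-sided exact permutation p for their difference was 0.20. Summed over both genes, AAH was at 143, 133 and 115 CPM in controls and at 232, 181 and 160 CPM in low nitrogen, with a fold change of 0.55 (SE 0.16, 95% interval 0.17 to 0.94). With that pair of libraries left out the summed fold change was 0.31, with an unadjusted edgeR p of 0.0571.

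ARGAH2 encodes an arginase, the enzyme that opens the arginine route. ARGAH2 Nitab4.5_0000457g0100 was at 6.90, 4.43 and 5.45 CPM in the control libraries and at 12.5, 10.2 and 9.99 CPM in the low nitrogen libraries. The lowest low nitrogen library was 1.45 times the highest control library. The means were 5.59 ± 1.24 and 10.9 ± 1.41 CPM (SD, n = 3), from 221 and 486 counts over each group, so that this gene rested on far fewer reads than the XDH1 genes. The fold change of 0.96 (SE 0.22, 95% interval 0.45 to 1.47) was the highest of the 6 genes. The unadjusted edgeR p was 0.00280, rank 319 among all genes tested, the adjusted edgeR p 0.332 and the DESeq2 adjusted p 0.0359.

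The other ARGAH2 gene, Nitab4.5_0010616g0050, was at 6.25, 10.3 and 7.08 CPM in the control libraries and at 12.2, 7.37 and 8.81 CPM in the low nitrogen libraries. The groups overlapped, since control replicate 2 lay above low nitrogen replicates 2 and 3. The fold change was 0.27 (SE 0.27, 95% interval -0.37 to 0.90), with an unadjusted edgeR p of 0.359. Leaving out low nitrogen replicate 1 brought it to 0.03, leaving out control replicate 1 to 0.12 and leaving out control replicate 2 to 0.51. It was -0.04 with control replicate 3 and low nitrogen replicate 1 both left out.

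The ARGAH2 genes diverged most in control replicate 2. It held the lowest level of Nitab4.5_0000457g0100 among the controls and the highest of Nitab4.5_0010616g0050, so that the share of the former was 30.1% there (exact 95% interval 23.8% to 37.0%, counting error only) against 52.5% and 43.5% in control replicates 1 and 3. In the low nitrogen libraries the share was 50.6%, 58.0% and 53.1%. The mean shares of 42.0% ± 11.3 and 53.9% ± 3.78 (SD, n = 3) differed by 11.9 percentage points, with a two-sided exact permutation p of 0.20. With 3 against 3 libraries this test cannot go below 0.10, so that it could not have shown a difference at 0.05. Summed over both genes, ARGAH2 was at 15.3, 17.1 and 14.7 CPM in controls and at 28.8, 20.3 and 21.8 CPM in low nitrogen, with a fold change of 0.59 (SE 0.17, 95% interval 0.19 to 0.99). It was 0.38 with an unadjusted edgeR p of 0.0565 when control replicate 3 and low nitrogen replicate 1 were left out.

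Copies of a symbol may be near-identical and the counting may have divided reads between them, so that values of single copies are uncertain to that extent, and sums over copies were tested as well. In each of the 3 sums every low nitrogen library lay above every control library, against 10.3% of 8769 summed symbols tested. Unadjusted edgeR p was 0.00129 for XDH1, 0.0114 for AAH and 0.0101 for ARGAH2, and 6.71% of summed symbols had one under 0.05 in the upward direction. Adjusted over the summed symbols, edgeR p was 0.266, 0.343 and 0.338 in that order, and edgeR placed 0% of summed symbols past the threshold. DESeq2 gave adjusted p of 0.00444, 0.0976 and 0.128, which placed XDH1 past the threshold, against 0.856% of summed symbols in the upward direction. The 3 summed fold changes, 0.51 to 0.59, lay within each other's 95% intervals.

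Most DESeq2 calls ended when a library was left out. XDH1 Nitab4.5_0006994g0020 stayed past the threshold without low nitrogen replicate 3 (adjusted p 0.0167) and not without any other library (0.0795 to 0.242). ARGAH2 Nitab4.5_0000457g0100 stayed past it without control replicate 1 (adjusted p 0.0494) and not without any other (0.0505 to 0.441). The sizes moved less than the calls. With edgeR, XDH1 Nitab4.5_0006994g0020 kept a fold change of 0.51 to 0.62 and ARGAH2 Nitab4.5_0000457g0100 one of 0.82 to 1.13 when any 1 library was left out. With control replicate 3 and low nitrogen replicate 1 both left out they were 0.49 and 0.82, with unadjusted edgeR p of 0.0188 and 0.0256 and DESeq2 adjusted p of 0.582 and 0.539.

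**Figure D2:**
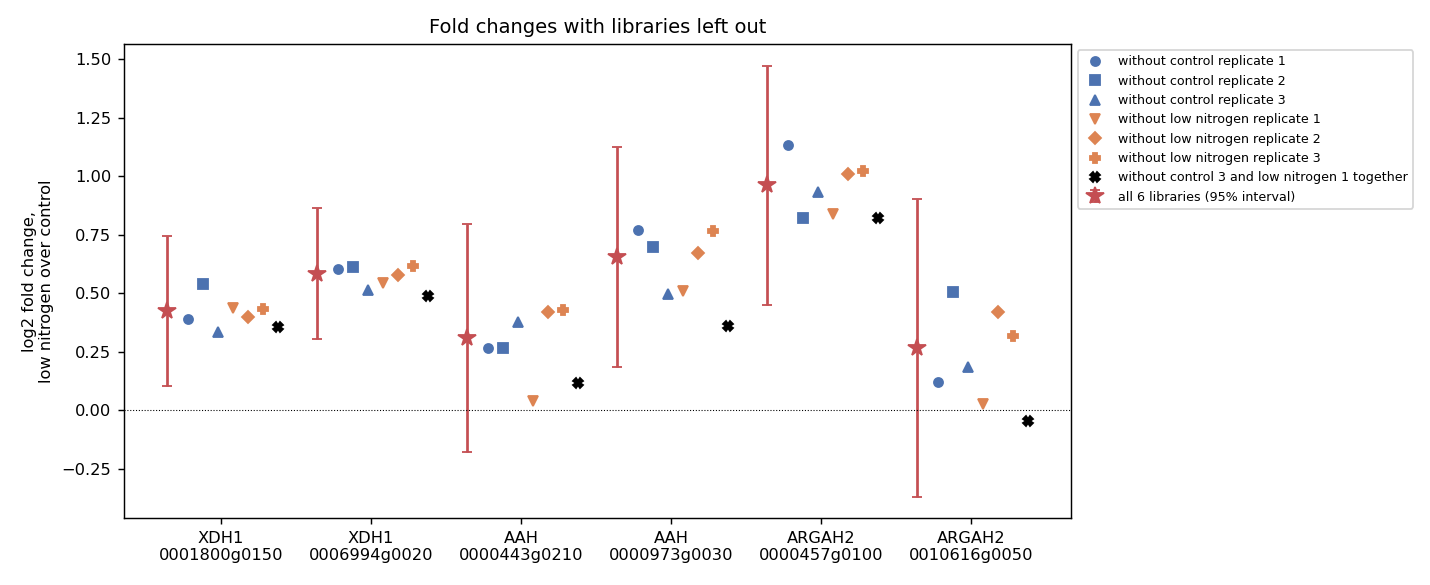
Fold change (log2, low nitrogen over control, edgeR) of each gene with all 6 libraries (star, with its 95% interval), with each library left out in turn (blue for control, orange for low nitrogen) and without control replicate 3 and low nitrogen replicate 1 together (black cross). XDH1 Nitab4.5_0006994g0020 stays between 0.49 and 0.62, while AAH Nitab4.5_0000443g0210 and ARGAH2 Nitab4.5_0010616g0050 come to 0.04 and 0.03 without low nitrogen replicate 1.

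The spread between libraries differed among the genes. The coefficient of variation within a group was 6.95% in controls and 4.17% in low nitrogen for XDH1 Nitab4.5_0006994g0020, and 13.5% and 3.73% for XDH1 Nitab4.5_0001800g0150. It was 19.5% and 16.8% for AAH Nitab4.5_0000973g0030, while AAH Nitab4.5_0000443g0210 was more even in controls (9.31%) than in low nitrogen (28.4%). The ARGAH2 genes had 22.2% and 13.0% for Nitab4.5_0000457g0100 and 27.0% and 26.4% for Nitab4.5_0010616g0050. Counting error alone would give 11.7% and 9.77% in controls for these ARGAH2 genes, which had few reads. For the XDH1 and AAH genes it would give 3.1% to 5.2% in controls.

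The genes closest in pattern to each enzyme were sought among 19276 named genes with a mean of at least 5 CPM, by the root mean square difference of log2 CPM over the 6 libraries, each gene centred on its own mean. For XDH1 Nitab4.5_0006994g0020 the closest was ASR3 (Nitab4.5_0007658g0010), a trihelix transcription repressor in Arabidopsis, at 0.0381. Next was Snapc3 (Nitab4.5_0003942g0040), named for a subunit of the complex that activates transcription of small nuclear RNA genes in mammals, at 0.0469. Slc38a3 (Nitab4.5_0002978g0050), named for a rat amino acid transporter, was at 0.0540. The second XDH1 gene was at 0.117 by the same measure. Slc38a3 was at 147, 164 and 137 CPM in controls and at 222, 213 and 206 CPM in low nitrogen.

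For AAH Nitab4.5_0000973g0030 the closest were CTDP1 (Nitab4.5_0006527g0010), named for a phosphatase of RNA polymerase II, at 0.0836, DEGP7 (Nitab4.5_0000465g0040), a DegP-type protease, at 0.124, and ILL7 (Nitab4.5_0000381g0150), an auxin conjugate hydrolase named from rice, at 0.135. The other AAH gene lay further off, at 0.329. For ARGAH2 Nitab4.5_0010616g0050, taken because it held more counts over all libraries together, though fewer than its partner in low nitrogen (420 against 486), the closest were GTE6 (Nitab4.5_0005460g0050), a bromodomain protein, at 0.0881, BHLH113 (Nitab4.5_0001433g0070), a transcription factor, at 0.106, and TBL21 (Nitab4.5_0001084g0030), of the trichome birefringence-like family, at 0.110. The other ARGAH2 gene was at 0.510, which is more than the SD of 0.344 of the gene's own values. With 6 libraries and so many genes compared, close matches arise in any case, and these are descriptions.

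The other steps of the same routes were read from 6 gene lists that hold 88 further genes, of which 75 were tested. Of these 75, 32 had a fold change above 0, against 50.3% of all genes tested. At an unadjusted edgeR p under 0.05, 8 of the 75 were higher and 5 lower in low nitrogen, beside 6.1% and 5.66% of all genes tested. These shares are also the background for the counts of each list below. The lists too were chosen with earlier results of these data known. edgeR placed 0 past the adjusted threshold, as it did for all genes, and DESeq2 placed 2, both higher and both named BAC2, beside 0.754% of all genes. Their median fold change was -0.07, beside 0.003 for all genes tested.

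**Figure D3:**
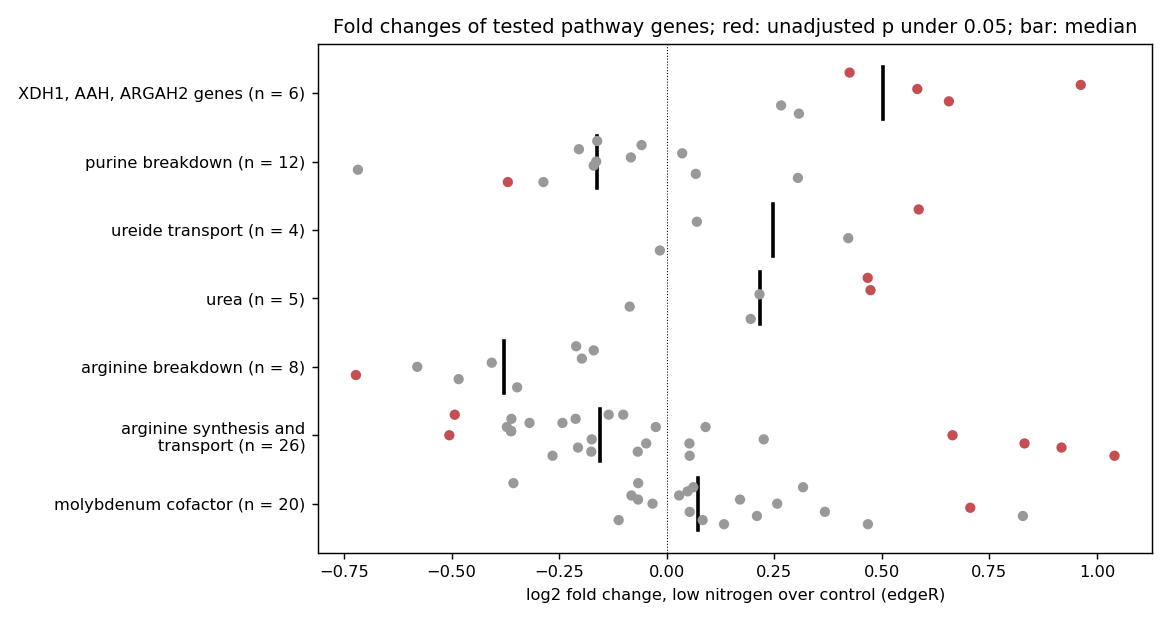
Fold change (log2, low nitrogen over control, edgeR) of every tested gene of XDH1, AAH and ARGAH2 and of 6 lists of the same routes. Each point is a gene, red where the unadjusted p is under 0.05, and the bar is the median of the list. The 6 XDH1, AAH and ARGAH2 genes all lie above 0. All 8 further genes in the arginine breakdown list, which are genes of routes to polyamines, lie below 0.

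On the purine side, 3 of 12 further tested genes had a fold change above 0 (median -0.16), 0 were higher and 1 lower at an unadjusted edgeR p under 0.05. AMPD (Nitab4.5_0000261g0090), AMP deaminase at the head of the route, had a fold change of 0.04. URH1, a nucleoside hydrolase, had -0.29 for Nitab4.5_0000160g0170 and -0.20 for Nitab4.5_0002400g0030. The former was -0.10 when low nitrogen replicate 1 was left out, and the latter 0.06 when control replicate 1 was. The genes of TTL, which makes allantoin from a urate product, had 0.30 for Nitab4.5_0001476g0040 and -0.06 for Nitab4.5_0001209g0060. Urate oxidase and allantoinase are not analysed here.

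Of the 4 tested genes of the steps after AAH, 1 had an unadjusted edgeR p under 0.05. UGLYAH, ureidoglycine aminohydrolase, acts directly on the product of allantoate amidohydrolase. UGLYAH Nitab4.5_0009451g0030 was at 10.6, 10.6 and 10.8 CPM in the control libraries and at 8.33, 7.68 and 8.74 CPM in the low nitrogen libraries, with a fold change of -0.37 (SE 0.15) and an unadjusted edgeR p of 0.0405. Every low nitrogen library lay below every control library, as in 8.54% of all genes tested. With limma-voom the unadjusted p was 0.0367, and with DESeq2 it was 0.0640. In edgeR it was over 0.05 with any 1 library but low nitrogen replicate 3 left out (0.0624 to 0.120). It was also over 0.05 in edgeR with the pair of libraries that stood apart left out (0.116). UGLYAH Nitab4.5_0000500g0240 also lay below in every library, at 13.9, 12.4 and 9.98 CPM against 3.29, 9.68 and 9.02 CPM, with a fold change of -0.72 (SE 0.38, unadjusted edgeR p 0.101) that was -0.38 without low nitrogen replicate 1. UAH, ureidoglycolate amidohydrolase at the end of the route, had fold changes of -0.16 for both of its genes (Nitab4.5_0000525g0250 and Nitab4.5_0001418g0050), with unadjusted edgeR p of 0.538 and 0.456. Both turned positive when low nitrogen replicate 1 was left out (0.02 and 0.004), and when it was left out together with control replicate 3 (0.02 and 0.07).

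Ureide permeases carry allantoin and related compounds across membranes. Of 4 tested genes, all named UPS2, 3 had a fold change above 0 (median 0.25) and 1 was higher at an unadjusted edgeR p under 0.05. UPS2 Nitab4.5_0005173g0020 was at 7.31, 7.73 and 7.22 CPM in the control libraries and at 10.4, 9.68 and 13.3 CPM in the low nitrogen libraries. The groups were separate, with a fold change of 0.59 (SE 0.18), an unadjusted edgeR p of 0.0133 and an adjusted edgeR p of 0.369. UPS2 Nitab4.5_0000231g0350, with the most counts of the 4, had a fold change of -0.02.

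Xanthine dehydrogenase needs a molybdenum cofactor, which ABA3 finishes by adding a sulfur atom. In the cofactor list 14 of 20 tested genes had a fold change above 0 (median 0.07), with 1 higher and 0 lower at an unadjusted edgeR p under 0.05. ABA3 Nitab4.5_0001080g0010 was at 28.7, 39.4 and 43.8 CPM in the control libraries and at 77.1, 55.9 and 49.7 CPM in the low nitrogen libraries. The groups were separate, with a fold change of 0.71 (SE 0.22), an unadjusted edgeR p of 0.0151 and an adjusted edgeR p of 0.373. Leaving out control replicate 1 gave an unadjusted edgeR p of 0.0520, and leaving out low nitrogen replicate 1 gave 0.0513. The other 4 tested ABA3 genes, given after their values were seen, had fold changes of 0.13 (Nitab4.5_0000108g0250), 0.05 (Nitab4.5_0001014g0100), 0.47 (Nitab4.5_0002321g0070) and -0.08 (Nitab4.5_0002321g0080), with unadjusted edgeR p of at least 0.0562. MOCOS names the same sulfurase, and its tested genes had 0.32 (Nitab4.5_0005379g0050) and -0.11 (Nitab4.5_0000832g0130), with unadjusted edgeR p of 0.137 and 0.615. The cofactor synthesis genes CNX3, MOCS1, MOCS2 and MOCS3 that the naming rule took had fold changes of -0.36 to 0.26 and unadjusted edgeR p of at least 0.250. MOT1, a molybdate transporter, had 0.06 for Nitab4.5_0000410g0320 and 0.83 (SE 0.58) for Nitab4.5_0005313g0040, the latter set by low nitrogen replicate 1 at 4.83 CPM.

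On the arginine side, the 2 further genes that DESeq2 placed past the threshold encode a mitochondrial carrier. BAC2 encodes a carrier of basic amino acids in the mitochondrial inner membrane, known from Arabidopsis. BAC2 Nitab4.5_0000351g0090 was at 6.82, 5.63 and 5.10 CPM in the control libraries and at 11.6, 10.49 and 11.03 CPM in the low nitrogen libraries. The lowest low nitrogen library was 1.54 times the highest control library. The fold change was 0.92 (SE 0.18, 95% interval 0.50 to 1.33), with an unadjusted edgeR p of 0.00116, an adjusted edgeR p of 0.316 and 0.0148 as its DESeq2 adjusted p.

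A second BAC2 gene, Nitab4.5_0003351g0050, named after its values were seen, was at 5.20, 5.40 and 4.74 CPM in the control libraries and at 9.24, 8.31 and 9.78 CPM in the low nitrogen libraries. Its fold change was 0.83 (SE 0.17), with an unadjusted edgeR p of 0.00164, an adjusted edgeR p of 0.332 and a DESeq2 adjusted p of 0.0416. The third tested BAC2 gene, Nitab4.5_0012898g0010, had more counts and a fold change of -0.05 (SE 0.14, 95% interval -0.38 to 0.29). With 1 library left out, the DESeq2 call of Nitab4.5_0000351g0090 held without control replicate 1 (adjusted p 0.0468) and low nitrogen replicate 3 (0.0440) and ended without each other library, and that of Nitab4.5_0003351g0050 ended without every library in turn (0.105 to 0.379). Neither call held with control replicate 3 and low nitrogen replicate 1 both left out (DESeq2 adjusted p 0.486 and 0.591), where the edgeR fold changes were 0.78 and 0.76.

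Urease breaks down the urea that arginase makes, and both of its tested genes had every low nitrogen library above every control library, as did 9.66% of all genes tested. URE Nitab4.5_0000240g0180 was at 26.1, 35.1 and 35.9 CPM in the control libraries and at 53.2, 41.9 and 39.8 CPM in the low nitrogen libraries, a fold change of 0.47 (SE 0.18) with an unadjusted edgeR p of 0.0323. URE Nitab4.5_0003209g0020 was at 19.8, 25.9 and 20.04 CPM in controls and at 34.2, 27.5 and 29.1 CPM in low nitrogen, a fold change of 0.47 (SE 0.16) with an unadjusted edgeR p of 0.0213. The gaps were narrow, with the lowest low nitrogen library 1.11 and 1.06 times the highest control library, and the adjusted edgeR p were 0.402 and 0.388. For Nitab4.5_0000240g0180 the unadjusted p was 0.112 if control replicate 1 was dropped and 0.113 if low nitrogen replicate 1 was. For Nitab4.5_0003209g0020 it was 0.0835, 0.0721 and 0.0764 when control replicate 1, control replicate 3 or low nitrogen replicate 1 was dropped. With control replicate 3 and low nitrogen replicate 1 both dropped, the p were 0.0797 and 0.163, at fold changes of 0.40 and 0.30. Of the urease accessory genes, URED (Nitab4.5_0008021g0020) had a fold change of 0.22 and UREF (Nitab4.5_0000832g0030) one of -0.09.

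**Figure D4:**
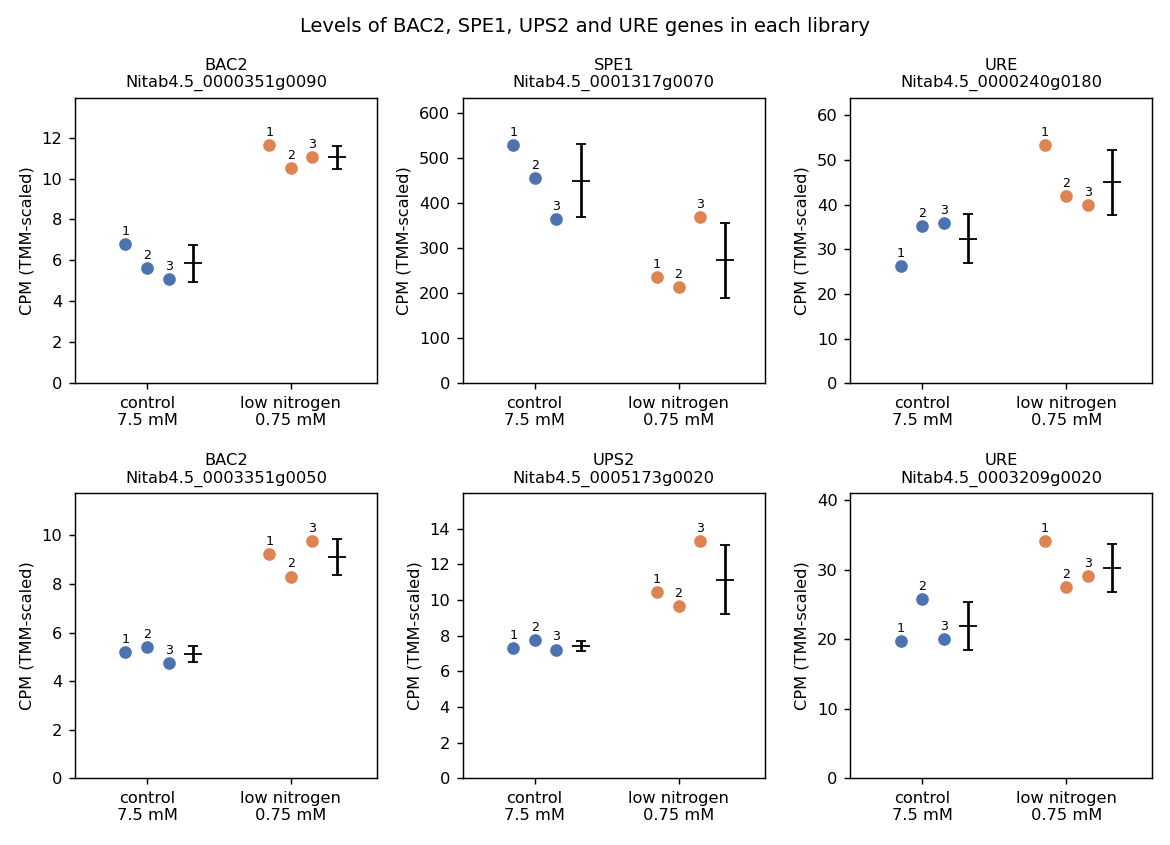
Level (CPM after TMM scaling, axis from 0) of chosen BAC2, SPE1, UPS2 and URE genes in each library. Points are numbered by replicate, with the mean and its SD beside each group. The low nitrogen libraries lie above all controls for both BAC2 genes shown, UPS2 Nitab4.5_0005173g0020 and both URE genes. At SPE1 Nitab4.5_0001317g0070, the only SPE1 gene shown, the groups overlap, with 1 low nitrogen library within the control range.

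SPE1 encodes arginine decarboxylase, which sends arginine towards polyamines instead of urea. All 8 further tested genes in the arginine breakdown list had a fold change below 0 (median -0.38), with 0 higher and 1 lower at an unadjusted edgeR p under 0.05. They are named SPE1, AIH, CPA and spe1, which are enzymes of routes to polyamines. SPE1 Nitab4.5_0001317g0070 was at 529, 457 and 366 CPM in the control libraries and at 236, 213 and 369 CPM in the low nitrogen libraries. Low nitrogen replicate 3 lay within the control range, and the fold change was -0.72 (SE 0.26), with an unadjusted edgeR p of 0.0280 and an adjusted edgeR p of 0.395. The unadjusted p was over 0.05 when either of control replicates 1 (0.0930) and 2 (0.0646) or either of low nitrogen replicates 1 (0.0838) and 2 (0.101) was dropped, and was 0.0512 with the pair that stood apart dropped. The fold change was -1.002 without low nitrogen replicate 3. The other tested SPE1 genes, given after their values were seen, had fold changes of -0.41 (Nitab4.5_0005266g0020), -0.48 (Nitab4.5_0005932g0030) and -0.58 (Nitab4.5_0010630g0010). Their unadjusted edgeR p were 0.128, 0.0542 and 0.0581. In the same order the unadjusted p were 0.0995, 0.0308 and 0.0310 with DESeq2, and 0.103, 0.0429 and 0.0400 with limma-voom. For Nitab4.5_0001317g0070 they were 0.00703 with DESeq2 and 0.0201 with limma-voom. The DESeq2 adjusted p of the SPE1 genes were 0.175 or more. For Nitab4.5_0005932g0030 and Nitab4.5_0010630g0010 every low nitrogen library lay below every control library, as in 8.54% of all genes tested.

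Further along the polyamine branch, AIH (Nitab4.5_0000208g0050), agmatine deiminase, had a fold change of -0.35, and CPA (Nitab4.5_0000755g0010), N-carbamoylputrescine amidase, one of -0.20. The gene labelled spe1 after the ornithine decarboxylase of fission yeast (Nitab4.5_0003280g0010) had -0.21. Their unadjusted edgeR p were 0.123, 0.198 and 0.314. Single libraries moved some of these values, since AIH had -0.14 if control replicate 2 was dropped and -0.51 (unadjusted edgeR p 0.0276) if control replicate 3 was, and spe1 had -0.09 if control replicate 3 was dropped.

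In the list of arginine synthesis and transport 8 of 26 tested genes had a fold change above 0 (median -0.15). At an unadjusted edgeR p under 0.05 4 were higher and 3 lower. Every low nitrogen library lay above every control library in 4 of the 26 and below in 6, beside 9.66% and 8.54% of all genes tested. BAC2 Nitab4.5_0000351g0090 and Nitab4.5_0003351g0050, which are carriers and not synthesis enzymes, are among those 4, and no BAC2 gene is among those 6. The lower ones were WIN1 (Nitab4.5_0000233g0210), an acetylornithine aminotransferase, with a fold change of -0.49 (SE 0.15), and the NAGK genes Nitab4.5_0006112g0010 and Nitab4.5_0000320g0090, for acetylglutamate kinase, with -0.51 (SE 0.17) and -0.36 (SE 0.13), the latter named after its values were seen. For WIN1 the unadjusted edgeR p was 0.0136 and the adjusted edgeR p 0.371. The unadjusted edgeR p of WIN1 stayed under 0.05 with any 1 library left out (0.00919 to 0.0488). It was 0.0291 with control replicate 3 and low nitrogen replicate 1 both left out. For NAGK Nitab4.5_0006112g0010 the unadjusted p was 0.0783 if control replicate 1 was dropped and 0.0652 if low nitrogen replicate 1 was. Besides both BAC2 genes, the higher ones were CARA (Nitab4.5_0002388g0110) and carB (Nitab4.5_0000816g0110), for the subunits of carbamoyl phosphate synthetase, with fold changes of 1.04 (SE 0.43) and 0.66 (SE 0.24). CARA Nitab4.5_0002388g0110 was at 20.7 CPM in low nitrogen replicate 1 and at 7.06 and 7.42 CPM in the other low nitrogen libraries. Its fold change was 0.33 (unadjusted edgeR p 0.156) with low nitrogen replicate 1 left out and 0.26 (0.302) with control replicate 3 left out as well. The unadjusted p was also over 0.05 with limma-voom (0.105) and in edgeR when control replicate 1 (0.1003), 2 (0.0746) or 3 (0.0990) was dropped. For carB Nitab4.5_0000816g0110 the fold change was 0.41 (unadjusted edgeR p 0.0953) with low nitrogen replicate 1 left out, and the p was 0.0910 and 0.0676 when control replicate 1 or 2 was. The most counted genes of both subunits, CARA Nitab4.5_0000540g0290 and carB Nitab4.5_0000106g0020, had -0.21 and -0.03. NAGS1, acetylglutamate synthase, had -0.36 for Nitab4.5_0004242g0020 and 0.05 for Nitab4.5_0000142g0190, argC (Nitab4.5_0001401g0050) had -0.32 and argF (Nitab4.5_0003265g0100), ornithine carbamoyltransferase, -0.37. NAGS1 Nitab4.5_0004242g0020 had -0.05 if control replicate 1 was dropped, -0.57 (unadjusted edgeR p 0.0416) if control replicate 3 was, and -0.64 (0.0476) if low nitrogen replicate 1 was dropped as well. argC had -0.14 if low nitrogen replicate 1 was dropped and -0.55 (unadjusted edgeR p 0.0324) if low nitrogen replicate 3 was.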

How the data were processed

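Per the labels' protocols, RNA was taken from seedlings with a column kit and polyadenylated RNA was made into libraries. Per the submitters' processing notes, HISAT2 was used (version not given in the sources used here). How reads were counted, on which strand and with several matches, is likewise not given in the sources used here. Raw whole-number counts were deposited by the authors for 69500 genes under Nitab4.5 identifiers.

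Genes were kept by edgeR's filterByExpr (38482), scaled by TMM and compared between 3 and 3 libraries by the quasi-likelihood test of edgeR 4.0.16 in R 4.3.3, with p adjusted by Benjamini-Hochberg across every gene tested. SE is the fold change over the square root of the F statistic. DESeq2 1.42.0 and limma 3.58.1 (voom) were run on the same genes. Counts were also summed over identical first names (10135 names, 8769 tested). Marker sums are CPM without TMM scaling. Depth was 13027374 to 15620067 counts.

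The 6 genes and the lists were chosen with earlier results of these data known. For each name in a list, the gene with the smallest p and the one with the most counts were named, up to 12 a list. In all, 37 genes that only share a name with a listed enzyme were removed by their deposited locus, after the table was seen. Closest patterns used log2(CPM + 0.5). The procedure was tested on simulated data. Sequences of these genes were not used here.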

Additional observations from a re-analysis of the deposited data

How the results depend on the processing

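With edgeR, 0 of the 6 genes passed the adjusted threshold under every alternative run, and DESeq2 placed 2 past it (fold change 0.57 for XDH1 Nitab4.5_0006994g0020 and 0.95 for ARGAH2 Nitab4.5_0000457g0100), as well as XDH1 summed over copies (0.51). With 1 library left out the DESeq2 count was 0 to 1, an alternative chosen after seeing the data, and it was 0 without control replicate 3 and low nitrogen replicate 1 together. The count of higher genes at an unadjusted p under 0.05 was 4 in each alternative with all libraries (3 of 3 with summed symbols), 3 to 4 with 1 library left out and 2 without that pair. Without the pair the second ARGAH2 gene was at -0.045. The cause of these differences was not tested. Other scalings (RLE, upper quartile) and filters changed no call of the 6 genes, and the median fold change of all genes lay between -0.02 and 0.003 under them.

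Among the further pathway genes, 8 higher at an unadjusted p under 0.05 became 3 to 10 and 5 lower became 1 to 9 with 1 library left out, and 5 higher were left without the pair. Whether the replicate numbers pair the samples could not be decided. Deviations of same-numbered libraries from their group means correlated at -0.316, 0.104 and -0.274. The highest correlation, 0.382, was between control replicate 3 and low nitrogen replicate 1. Deviations from a mean of 3 libraries are tied to each other, so low values do not exclude a pairing. With the replicate number as a block, 4 of the 6 genes stayed under an unadjusted p of 0.05, and the further genes came to 5 higher and 1 lower.

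Of 588 values of 42 named genes under the alternatives, 32 changed direction, in 15 genes, 0 of which had an unadjusted p under 0.05 with all libraries, and 2 values passed the threshold, both BAC2 with DESeq2 (0.91 and 0.82). Without the pair the fold change had the other sign for NAGS1 Nitab4.5_0000142g0190 (-0.12), MOCS1 Nitab4.5_0010722g0010 (-0.064), MOT1 Nitab4.5_0000410g0320 (-0.043) and Nitab4.5_0005313g0040 (-0.038), AMPD (-0.040), TTL Nitab4.5_0001209g0060 (0.0034), UAH Nitab4.5_0000525g0250 (0.015) and Nitab4.5_0001418g0050 (0.074), UREF (0.042) and UPS2 Nitab4.5_0000231g0350 (0.34). With 1 library left out, ranges crossed 0 for BAC2 Nitab4.5_0012898g0010 (-0.11 to 0.034), carB Nitab4.5_0000106g0020 (-0.19 to 0.051), NAGS1 (-0.16 to 0.16), CNX3 Nitab4.5_0000258g0220 (-0.30 to 0.12), MOCS1 Nitab4.5_0000468g0040 (-0.19 to 0.12) and Nitab4.5_0010722g0010 (-0.00050 to 0.20), MOT1 Nitab4.5_0000410g0320 (-0.097 to 0.23), AMPD (-0.024 to 0.11), UAH Nitab4.5_0000525g0250 (-0.41 to 0.021) and Nitab4.5_0001418g0050 (-0.28 to 0.0045), URH1 Nitab4.5_0002400g0030 (-0.35 to 0.058), UREF (-0.36 to 0.049) and UPS2 Nitab4.5_0000231g0350 (-0.24 to 0.18). The cause was not tested.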
